A study of Homo sapiens with 12 samples.

Results

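Of the 24446 H3K4me3 regions listed on chromosomes 1 to 22 and X of HepG2 cells, 924 shared no base with any region listed for H3K4me1 or H3K27ac. These 924, the H3K4me3-only regions, made up 3.78% of the list, with a 95% Wilson interval of 3.55 to 4.03% and a standard deviation (SD) of 1.94 percentage points over the 23 chromosomes. They were selected by comparing the 3 peak lists of the series, so the share itself and the absence of overlap describe the rule and carry no test. A region missing from a list lay below the threshold of that list, which does not show that the mark was absent there.

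The study applied chromatin immunoprecipitation and sequencing (ChIP-seq) to HepG2, a liver cancer line of human origin that keeps many features of hepatocytes and whose chromosome numbers are abnormal. Its 12 libraries formed 4 groups of 3 replicates, namely H3K27ac, H3K4me1, H3K4me3 and a control titled input whose antibody label read anti-mouse IgG. All of these cells were untreated, and each immunoprecipitation took 300 ng of sheared DNA that was read as 51 bp pairs. Each mark had 1 list of peaks, pooled over its replicates going by the file names, so the spread between cultures and the depth of each library are unknown and no difference below could be tested against it.

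H3K4me3 is the trimethylated form of lysine 4 on histone H3. It is laid down around the starts of active genes and at many CpG-rich promoters, by methyltransferase complexes drawn to unmethylated CpG DNA and to initiating RNA polymerase. H3K4me1, the monomethylated form, typically flanks the H3K4me3 of a promoter and marks enhancers, while H3K27ac, acetylation of lysine 27, is found at active promoters and enhancers. Promoters can also carry H3K4me3 without acetylation, for instance where Polycomb complexes hold a gene silent, a state that none of these 3 marks can identify by itself.

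For comparison the other H3K4me3 regions were placed in 3 classes by the same overlap rule. Those overlapping both marks numbered 18106 (74.1%), those overlapping H3K4me1 but not H3K27ac 4567 (18.7%), and those overlapping H3K27ac but not H3K4me1 849 (3.47%). The H3K4me1 list was long, with 182592 regions over 6.47% of the length examined, against 66513 regions over 3.04% for H3K27ac and 1.49% for H3K4me3. Together the H3K4me3-only regions covered 0.565 Mb, beside 39.5 Mb for the regions with both marks.

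H3K4me3-only regions were weak and narrow. Their signal value, the strength that the authors' peak caller gave each peak, with no statement of what it is relative to, had a median of 3.33 with quartiles of 2.53 and 5.21, and ran from 1.53 to 48.7. The median was 3.56 in the regions with H3K4me1 only, 22.3 in those with H3K27ac only and 27.9 in those with both marks. The chromosome medians of the H3K4me3-only regions had an SD of 0.5002. The median of the regions with H3K4me1 only differed from theirs by less than this SD. The distance from the acetylated classes exceeded the SD of any of these classes (0.5002, 5.24 with H3K27ac only, 4.39 with both). Such an SD is not the error of a difference between class medians, and these differences were not tested. The upper quartile of 5.21 was also below the 6.30 of the regions with H3K4me1 only. Width separated these 2 classes more clearly than the median signal value did.

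The median width of an H3K4me3-only region was 535 bp, with quartiles of 415 and 734 bp and an SD of 51.6 bp over the chromosome medians. It was 703 bp in regions with H3K4me1 only (SD 42.2 bp), 1485 bp in regions with H3K27ac only and 2075 bp in regions with both. The narrowest member spanned 312 bp, which was also the narrowest width in every other class. Since a wide region has more bases that can touch another mark, width takes part in the rule by itself, and the width difference is a description of what the rule selects.

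Most members were not near the threshold of the list, but a larger share of them was than in the acetylated classes. A −log10 q-value below 5 was found for 89 members (9.63%, interval 7.89 to 11.7%), against 7.27% of regions with H3K4me1 only (interval 6.55 to 8.06%), 1.88% of those with H3K27ac only and 2.64% of those with both marks. A q-value above 0.05 was found for 2 members. The median −log10 p-value of the members was 24.4, beside 36.7 for the regions with H3K4me1 only and 1766 for those with both marks. Summits stood in the middle of the region, at a median of 49.6% of its width with quartiles of 42.0 and 56.4%, and the class with both marks had its median at 50.2%.

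The share of H3K4me3-only regions did not simply grow as signal fell. When the list was divided into deciles by signal value, the strongest decile held none among 2445 regions, which allows a share of up to 0.157%. The next 3 deciles held 1, 0 and 2 members, and the fifth held 16. There were 119 in the sixth decile (4.87%, interval 4.08 to 5.79%), 192 in the seventh (7.85%), 234 in the eighth (9.57%, interval 8.47 to 10.8%) and 235 in the ninth (9.61%, interval 8.51 to 10.8%). In the weakest decile, with signal values of 1.25 to 2.19, only 125 regions (5.11%, interval 4.31 to 6.06%) lacked both marks. The intervals of the ninth and the weakest decile do not overlap, but they allow for counting error alone and are no test. In this list the weakest H3K4me3 regions touched another mark more often than those just above them, and 61.7% of them overlapped both marks.

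Width showed no such turn. Regions of up to 400 bp held 200 members among 1574 (12.7%, interval 11.2 to 14.4%), and regions of 400 to 500 and 500 to 600 bp had nearly the same shares, 12.6% and 12.1%. The share was 7.64% between 600 and 800 bp, 5.33% between 800 and 1000 bp and 2.10% between 1000 and 1500 bp. Above 1500 bp, 9 of 12384 regions (0.0727%, interval 0.0382 to 0.138%) lacked both marks. Among regions that lacked H3K27ac, the share that also lacked H3K4me1 was 25.1% up to 400 bp and 2.68% above 1500 bp.

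**Figure D1:**
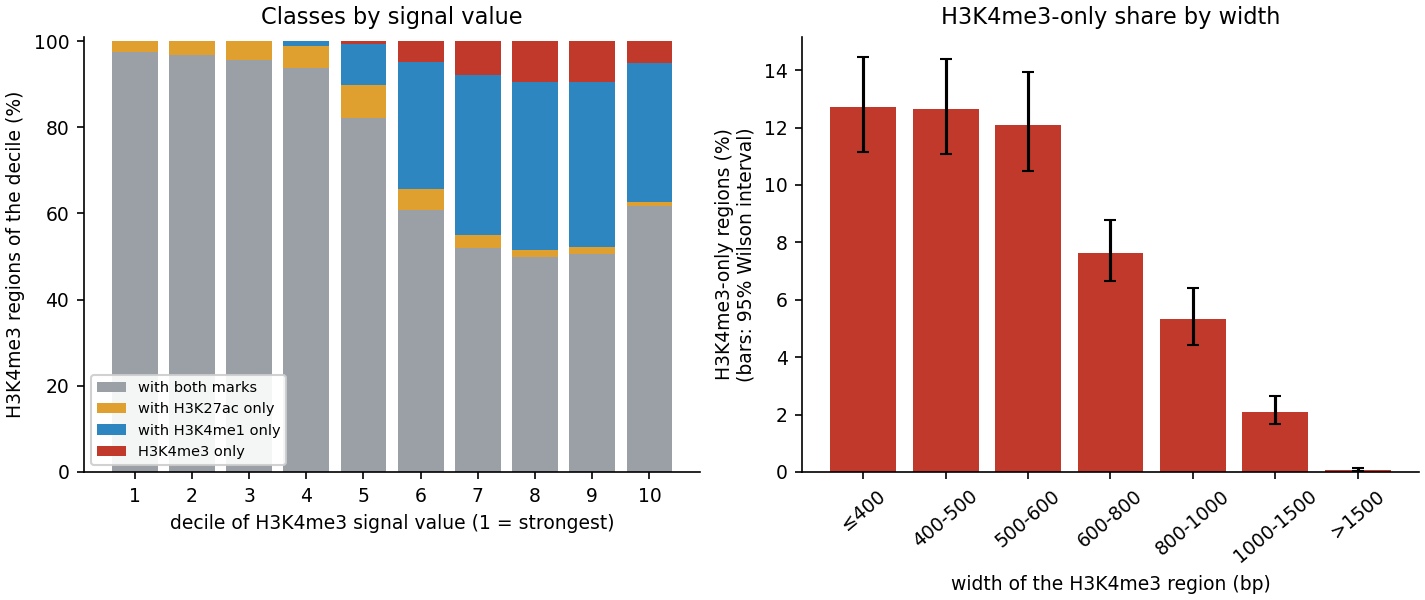
Left, share (%) of the 4 classes of H3K4me3 regions in each decile of the list by signal value, the strongest decile first. Right, share (%) of H3K4me3-only regions by width of the H3K4me3 region in bp, with 95% Wilson intervals. The H3K4me3-only share peaked at 9.61% in the ninth decile and was back at 5.11% in the weakest, while by width it was 12.1 to 12.7% up to 600 bp and 0.0727% above 1500 bp.

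At the strong end the members were few. Of the 13193 H3K4me3 regions with a signal value of at least 10, 54 (0.409%, interval 0.314 to 0.534%) had neither other mark. Of the 10859 with at least 20, 9 (0.0829%, interval 0.0436 to 0.157%) had neither, and 82 lacked H3K27ac. The strongest 12223 regions, taken by rank, held 19 members, which was 2.06% of all members (interval 1.32 to 3.19%).

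The strongest member stood apart from the rest. It lay on chromosome 12 from 13196867 to 13198210, in band 12p13.1, was 1344 bp wide and had a signal value of 48.7 and a −log10 p-value of 4051, rank 4085 in the whole list. All positions are given on GRCh37 (hg19), counted from 1. The next member down had a signal value of 32.4. Of the 4085 regions at least as strong as this one, it was the only one that lacked H3K27ac. H3K4me1 flanked it at 3.75 kb on the left, with a signal value of 2.45, and at 4.55 kb on the right, with 3.48, beside a median of 3.42 in the H3K4me1 list. The nearest H3K27ac region was 34.4 kb away on the right and the nearest on the left 42.1 kb.

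The second and the fourth strongest members were also wide, but more isolated. The second lay on chromosome 3 from 107808699 to 107810335, in band 3q13.12, spanned 1637 bp and had a signal value of 32.4. Its nearest H3K4me1 region was 11.4 kb away and its nearest H3K27ac region 130 kb. The fourth lay on chromosome 15 from 32161989 to 32163682, in band 15q13.3, spanned 1694 bp and had a signal value of 24.97, with H3K4me1 at 89.2 kb and H3K27ac at 200 kb. Neither had any other listed mark within 10 kb.

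The third lay on chromosome 4 from 26584905 to 26586638, in band 4p15.2, spanned 1734 bp and had a signal value of 26.6. H3K4me1 came within 5.91 kb on the left and 144 kb on the right, and H3K27ac no nearer than 197 kb. The fifth, on chromosome 10 from 86039431 to 86040495 in band 10q23.1, had a signal value of 23.4 and H3K4me1 on either side, at 8.50 and 5.48 kb, with H3K27ac at 46.4 kb. These 2 regions and the strongest had H3K4me1 within 10 kb and their nearest H3K27ac region between 34.4 and 197 kb away.

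Of the remaining 5 among the 10 strongest, 2 lay on either side of the centromere of chromosome 9. One, from 40791225 to 40792491 in band 9p13.1, had a signal value of 23.1 and its nearest H3K4me1 region 1181 kb away. The other, from 70402577 to 70403486 in band 9q21.11, had a signal value of 22.7 and H3K4me1 at 247 kb. A region on chromosome 16 from 32126830 to 32128083, in band 16p11.2, had a signal value of 22.2 and was the only one of the 10 within 5 Mb of a centromere, at 2.47 Mb.

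The last 2 lay further out on their chromosomes. One was on chromosome 7 from 143533360 to 143534093, in band 7q35, with a signal value of 21.5 and both other marks close to 44 kb away, H3K4me1 at 43.7 kb and H3K27ac at 44.0 kb. The weakest of the 10, on chromosome 6 from 112364303 to 112365179 in band 6q21, had a signal value of 19.3, H3K4me1 at 9.76 kb and H3K27ac at 24.6 kb. Over the 10 strongest members, the gap to H3K27ac ran from 24.6 to 200 kb with a median of 78.1 kb, and none had H3K27ac within 20 kb. H3K4me1 lay within 10 kb of 4 of the 10.

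The widest member was of another kind. It lay on chromosome 4 from 155484155 to 155486534, in band 4q31.3, spanned 2380 bp and had a signal value of only 5.01. An H3K4me1 region with a signal value of 4.42 ended 18 bp to its left, and an H3K27ac region with a signal value of 13.0 ended 1636 bp to its left. Band 4q31.3 holds the fibrinogen genes, which liver cells express, but gene positions were not used here. The second widest lay on chromosome 14 from 85999291 to 86001269, in band 14q31.3, spanned 1979 bp with a signal value of 6.21, and had H3K4me1 at 1087 bp and H3K27ac at 1242 bp. The third, on chromosome X from 87595014 to 87596804 in band Xq21.31, spanned 1791 bp with a signal value of 5.56, and its nearest other mark was 97.5 kb away. The 4p15.2 and 15q13.3 regions described above completed the 5 widest.

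**Figure D2:**
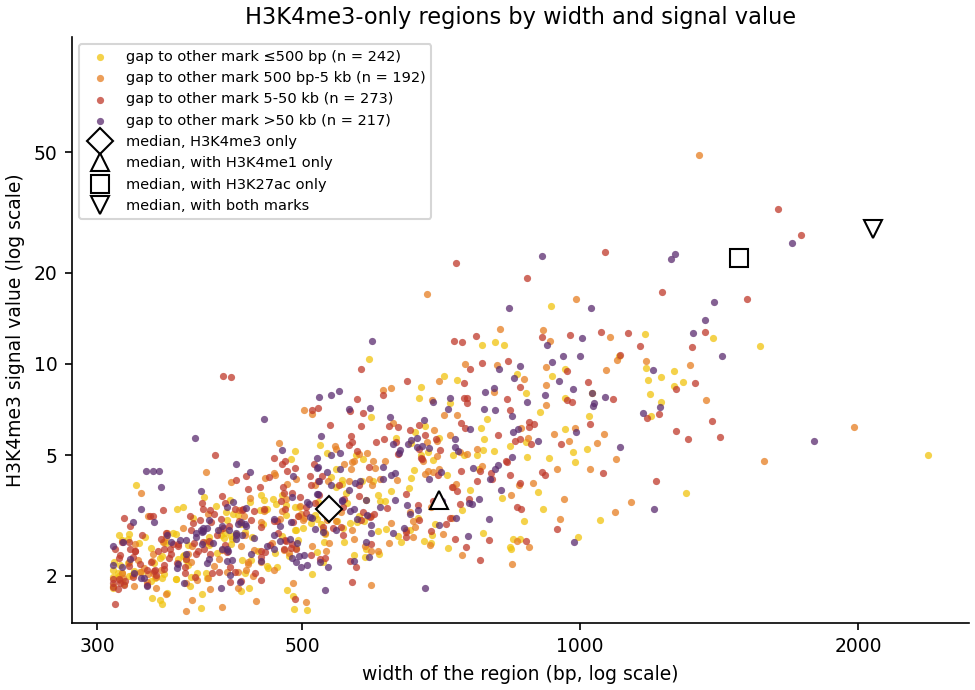
Width (bp, log scale) against H3K4me3 signal value (log scale) of the 924 H3K4me3-only regions, 1 point each, coloured by the gap to the nearest H3K4me1 or H3K27ac region, with the medians of the 4 classes as open symbols. Most members lie below a signal value of 10 and a width of 1000 bp, all 4 gap ranges are mixed over that area, and a single member reaches 48.7.

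The members lay in surroundings that ranged from the edge of another mark to deserts of more than 1 Mb. The gap to the nearest H3K4me1 or H3K27ac region had a median of 5961 bp, with quartiles of 411 bp and 44337 bp. Another mark lay within 200 bp of 157 members (17.0%), within 500 bp of 242 (26.2%), within 1 kb of 299 (32.4%), within 10 kb of 529 (57.3%, interval 54.0 to 60.4%) and within 100 kb of 793 (85.8%). At the far end, 217 members had neither mark within 50 kb.

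That nearest region was H3K4me1 for 822 members (89.0%) and H3K27ac for 102 (11.04%). This share should be read beside the number of regions listed, since H3K4me1 had 182592 and H3K27ac 66513. The median gap was 6884 bp to H3K4me1, 47828 bp to H3K27ac and 44310 bp to the next H3K4me3 region.

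At the rule's own boundary, members and non-members differed by a few bases. The smallest gaps were 0 bp at 8p11.21 (signal value 3.55), where the 2 regions abut, 1 bp at 2p24.3 (2.73), 1 bp at 4q34.3 (5.14), 2 bp at 10q25.2 (3.24) and 3 bp at 5q12.1 (4.87). The smallest overlaps that placed a region outside the set were 3 bp at 12q15 (2.18), 6 bp at 7q36.1 (2.32), 7 bp at 1p31.3 (7.67), 8 bp at 2p14 (3.52) and 8 bp at 5q14.3 (4.01). All 10 were gaps to or overlaps with H3K4me1. In all, 83 members had a gap of at most 100 bp, and 168 other H3K4me3 regions overlapped another mark by at most 100 bp.

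Where H3K4me1 was near, it mostly lay on 1 side. Within 500 bp, 191 members had H3K4me1 on 1 side and 30 on both. Within 10 kb, 291 had it on 1 side and 221 on both. The 221 H3K4me1 regions nearest to the members with one within 500 bp were all different regions. They were narrow, with a median width of 480 bp against 696 bp in the whole H3K4me1 list, and their median signal value was 3.17 against 3.42. These H3K4me1 regions were chosen for lying close to a member without touching it, so the contrast is a description. H3K27ac lay within 1 kb of only 54 members, on 1 side of 53 and on both sides of 1, and 31 members had both marks within 1 kb.

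**Figure D3:**
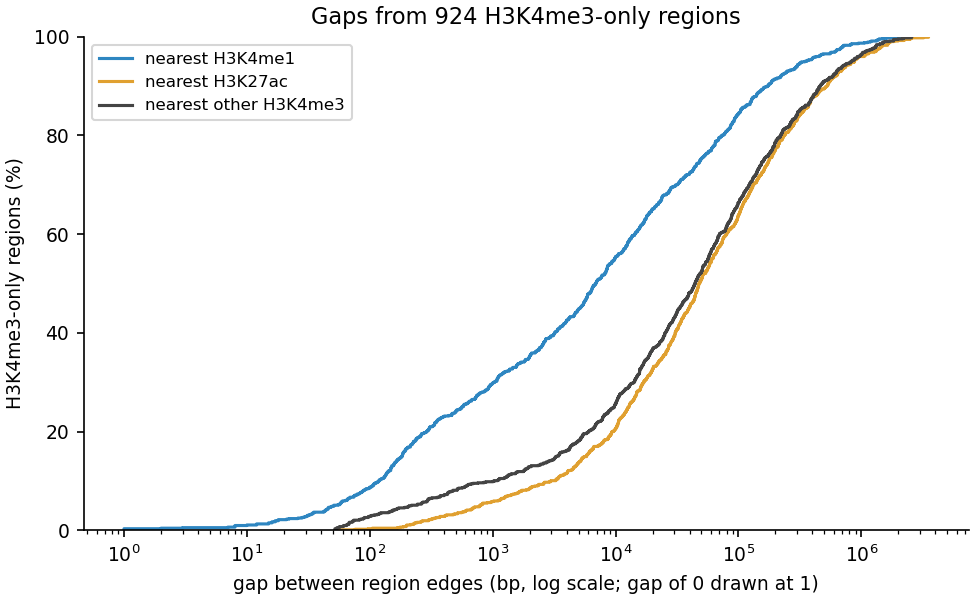
Cumulative share (%) of the 924 H3K4me3-only regions by the gap in bp (log scale) to the nearest H3K4me1 region, the nearest H3K27ac region and the nearest other H3K4me3 region. The curve for H3K4me1 reaches 29.9% at 1 kb and 55.4% at 10 kb, while that for H3K27ac reaches 5.84% and 20.6%.

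The members were further from acetylation than regions with H3K4me1 only, although neither class touched H3K27ac. The gaps in this and the next paragraph, and the shares by position after them, come from the lists that the rule used. They are a description, since the classes were chosen for touching or not touching those marks. The median gap to H3K27ac was 47828 bp for members and 20477 bp for regions with H3K4me1 only, and it was longer for the members on 22 of 23 chromosomes. H3K27ac lay within 10 kb of 190 members (20.6%, interval 18.1 to 23.3%) and of 1493 regions with H3K4me1 only (32.7%, interval 31.3 to 34.1%). This order did not hold close by. Within 1 kb the shares were 5.84% of members and 4.77% of regions with H3K4me1 only.

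They were likewise further from H3K4me1 than regions with H3K27ac only, which also touched none. The median gap to H3K4me1 was 6884 bp for members and 1090 bp for regions with H3K27ac only, longer for the members on 21 of 23 chromosomes. H3K4me1 lay within 10 kb of 512 members (55.4%, interval 52.2 to 58.6%) and of 621 regions with H3K27ac only (73.1%, interval 70.1 to 76.0%). Other H3K4me3 regions were also further away at the median. The median gap to the next one was 44310 bp for members, against 17950 bp for regions with H3K4me1 only (longer for the members on 22 of 23 chromosomes) and 19938 bp for regions with H3K27ac only (19 of 23). Close by, the order against regions with H3K4me1 only did not hold. Another H3K4me3 region lay within 500 bp of 75 members (8.12%, interval 6.52 to 10.1%). The shares were 6.33% with H3K4me1 only (interval 5.66 to 7.07%) and 15.7% with H3K27ac only.

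Position by position, H3K4me1 around the members formed a low rim and then a plateau at the genome's average. The share of positions inside an H3K4me1 region was 8.28% at 500 bp from the H3K4me3 summits, 9.90% at 750 bp, 8.39% at 1 kb, 6.22% at 2 kb and 4.98% at 10 kb (SD 4.02 over chromosomes), beside 6.47% for the whole length. At 10 kb from regions with H3K4me1 only the share was 15.6% (SD 6.09), above that of the members on all 23 chromosomes. At the same distance it was 8.54% for regions with H3K27ac only, above the members on 19 of 23, and 24.2% for regions with both marks. At 100 kb the members stood at 6.28%, against 13.2% for regions with H3K4me1 only.

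H3K27ac showed no rim. The share of positions inside an H3K27ac region was 1.68% at 1 kb from the members, 2.27% at 10 kb (SD 3.27), 2.06% at 20 kb and 3.35% at 100 kb, beside 3.04% for the whole length. Around regions with H3K4me1 only it was 1.29% at 1 kb, 4.28% at 10 kb, 5.21% at 20 kb and 6.17% at 100 kb. The members were the lower of these classes on 11 of 23 chromosomes at 1 kb, on 17 at 10 kb, on 19 at 20 kb and on 20 at 100 kb. Other H3K4me3 regions covered 1.73% of positions at 10 kb from the members, 3.45% for regions with H3K4me1 only and 5.39% for regions with both marks, beside 1.49% for the whole length.

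**Figure D4:**
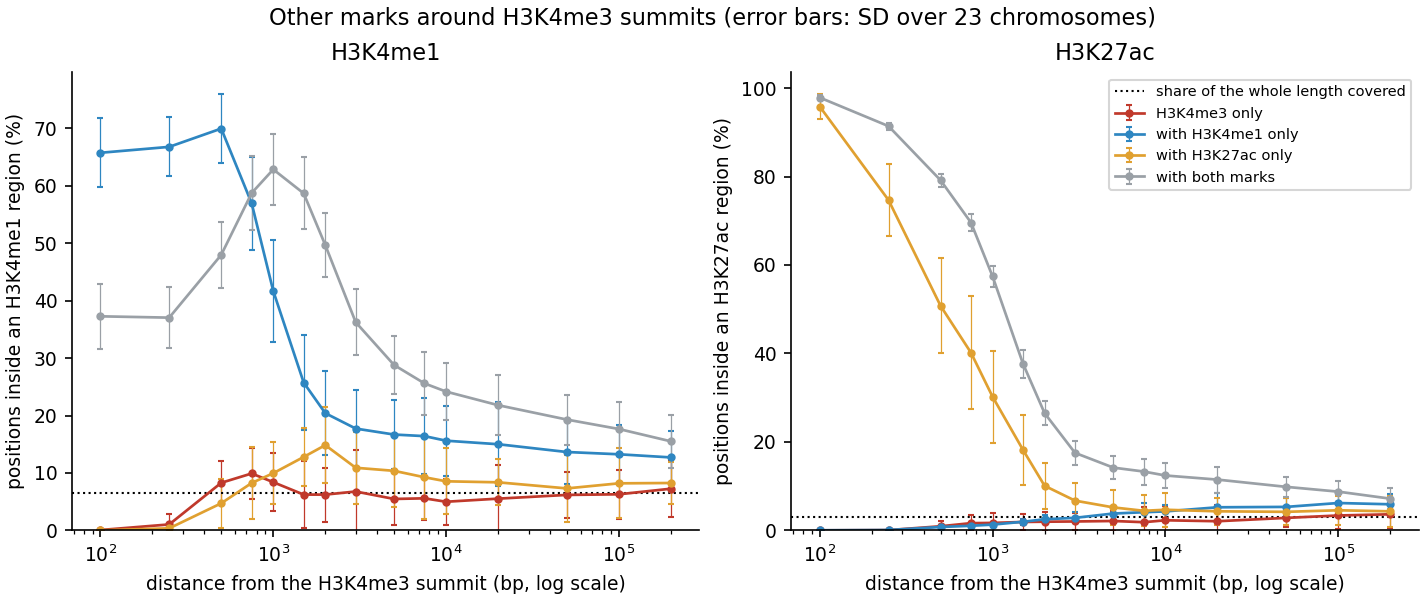
Share (%) of positions inside an H3K4me1 region (left) and an H3K27ac region (right) against the distance in bp (log scale) from the H3K4me3 summit, for the 4 classes, with the SD over 23 chromosomes as error bars and the share of the whole length as a dotted line. Around H3K4me3-only regions H3K4me1 peaks at 9.90% at 750 bp and then lies near the dotted line at 6.47%, and H3K27ac stays below 3.04% up to 20 kb.

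The median signal of the members rose a little with the gap to another mark. The median signal value was 3.04 for the 242 members with another mark within 500 bp, 3.26 for the 192 between 500 bp and 5 kb, 3.38 for the 273 between 5 and 50 kb and 3.52 for the 217 beyond 50 kb. These medians differed by less than the SD of 0.5002 over chromosomes. That SD is not the error of such a median, and the rise was not tested. Median widths were 521.5, 566, 523 and 548 bp. Signal values of at least 10 were found in 9 (3.72%, interval 1.97 to 6.92%), 9 (4.69%, interval 2.49 to 8.67%), 20 (7.33%, interval 4.79 to 11.04%) and 16 (7.37%, interval 4.59 to 11.6%) of them. The shares of the 2 farther groups were the larger, with intervals that overlap those of the nearer ones. The setting differed more, since the median gap to the next H3K4me3 region was 15783 bp in the nearest group and 227359 bp in the farthest.

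The 5 most isolated members were weak to middling. The one farthest from any other mark lay on chromosome 16 from 61341974 to 61342458, in band 16q21, spanned 485 bp, had a signal value of 2.64 and a gap of 2093475 bp. On chromosome 21, a member from 25259853 to 25260538 in 21q21.2 had a signal value of 5.29 and a gap of 1498045 bp, and one from 23768696 to 23769225 in 21q21.1 had 1.80 and 1397447 bp. A member on chromosome 4 from 60684314 to 60684846, in 4q13.1, had a signal value of 2.14 and a gap of 1381867 bp. The fifth, on chromosome 11 from 39392628 to 39393359 in 11p12, had a signal value of 5.33 and a gap of 957716 bp.

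Along the genome, the members followed length more than they followed other H3K4me3 regions. Their number per chromosome had a Pearson correlation of 0.87 with chromosome length (Spearman 0.90) over the 23 chromosomes, against 0.60 (Spearman 0.53) for all H3K4me3 regions. Members per 100 Mb ran from 11.7 on chromosome 22 to 47.4 on chromosome 19, with a median of 28.0, a 4.05-fold range. All H3K4me3 regions per Mb ran from 4.55 on chromosome 4 to 27.8 on chromosome 19, a 6.10-fold range. Across chromosomes the density of H3K4me3 regions had a correlation of −0.63 (Spearman −0.84) with the share of them that were members, and of 0.23 (Spearman −0.08) with the members per 100 Mb. The share has the number of H3K4me3 regions as its denominator, and these values are given without a test.

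The share of a chromosome's H3K4me3 regions that were members ranged 8.37-fold. It was lowest on the short, gene-rich chromosomes 22 (6 of 629, 0.954%, interval 0.438 to 2.07%), 20 (9 of 663, 1.36%), 19 (28 of 1641, 1.71%) and 17 (1.90%). The highest shares were on chromosomes X (57 of 714, 7.98%, interval 6.21 to 10.2%), 4 (65 of 869, 7.48%, interval 5.91 to 9.42%), 5 (72 of 1115, 6.46%) and 18 (6.07%). The median over chromosomes was 3.51%. These shares depend on the H3K4me1 list, since the rule leaves out any region that touches it. That list covered between 11.1 and 14.95% of the length of chromosomes 22, 20, 19 and 17. On chromosomes X, 4, 5 and 18 it covered between 2.19 and 4.82%. How far this coverage accounts for the order of the chromosomes was not tested.

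**Figure D5:**
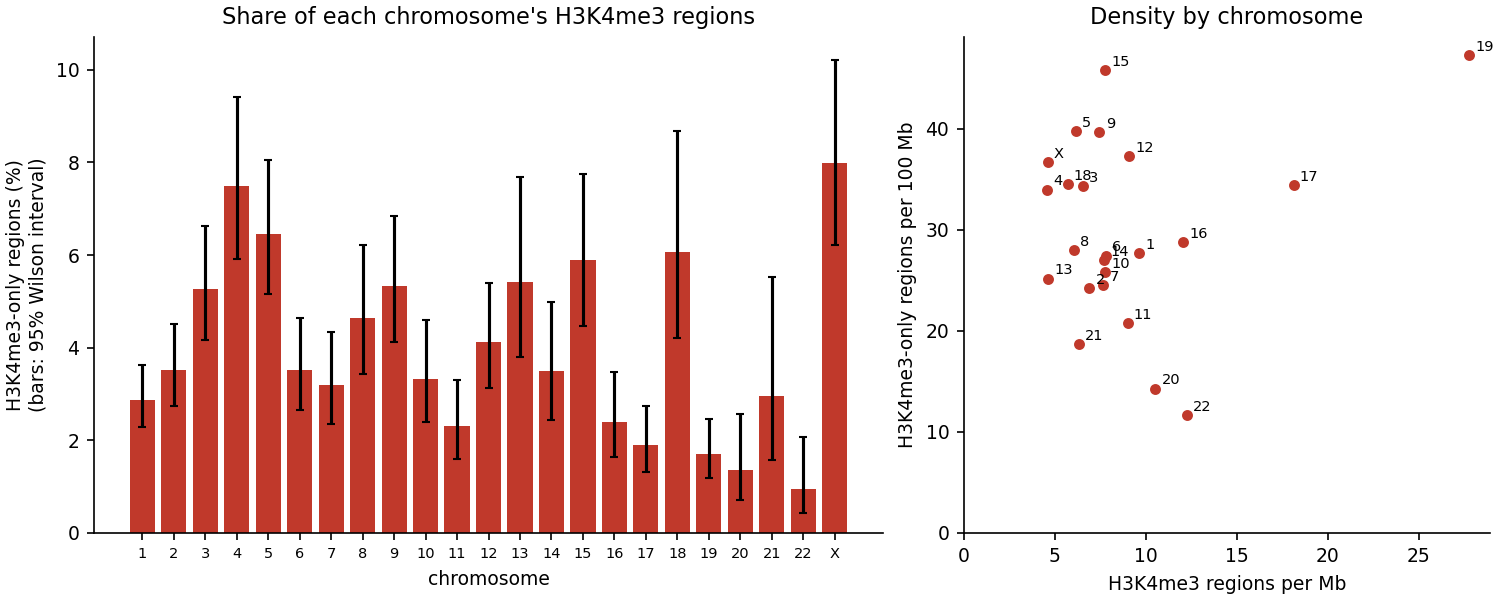
Left, share (%) of each chromosome's H3K4me3 regions that were H3K4me3-only, with 95% Wilson intervals. Right, H3K4me3-only regions per 100 Mb against all H3K4me3 regions per Mb, 1 point per chromosome. Chromosomes X and 4 have the highest shares, 7.98 and 7.48%, and chromosome 19 has 27.8 H3K4me3 regions per Mb but a share of only 1.71%.

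Light stained bands held the largest share of every class, but a larger share of the members than of the other classes lay in dark bands. G-banding stains AT-rich, gene-poor, late-replicating chromatin dark, and leaves GC-rich, gene-rich chromatin light. Dark bands (the 2 darkest of the 4 stain grades) held 275 members (29.8%, interval 26.9 to 32.8%), beside 29.8% of the length that such bands make up. They held 14.5% of regions with H3K4me1 only (interval 13.5 to 15.6%), 18.8% of those with H3K27ac only (interval 16.4 to 21.6%) and 11.2% of those with both marks. The share was higher among members than among regions with H3K4me1 only on 20 of 23 chromosomes. Light bands held 447 members (48.4%, interval 45.2 to 51.6%), against 60.3, 54.3 and 64.1% of the other 3 classes and 42.4% of the length.

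Put the other way, 8.77% of all H3K4me3 regions in dark bands were members, and 11.98% in the darkest grade, against 2.93% in light bands. Within the members, the dark share was larger where the other marks were far. It was 18.6% for members with another mark within 500 bp, 18.75% between 500 bp and 5 kb, 28.6% between 5 and 50 kb and 53.5% beyond 50 kb. The share of the members nearest to another mark was close to the 18.8% of regions with H3K27ac only, and most of the farthest members lay in dark bands. The rule leaves out any region that touches the H3K4me1 or H3K27ac list, and the gap groups were sorted by the same lists. How far the coverage of these lists in each kind of band accounts for the band shares was not tested.

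Near centromeres the members were few in number, but their share was above that of regions with H3K4me1 only or with both marks. Within 1 Mb of a centromere lay 27 members (2.92%, interval 2.02 to 4.22%), beside 1.53% of regions with H3K4me1 only, 2.83% of those with H3K27ac only and 1.08% of those with both marks. Of these 27, 8 formed 1 run on chromosome 14. Without chromosome 14 the share was 2.12% (19 of 895, interval 1.36 to 3.29%). That chromosome was left out for the members only, and this interval includes the 1.53% of regions with H3K4me1 only. Within 5 Mb lay 9.63% of all members, against 6.74% of regions with H3K4me1 only, 11.1% with H3K27ac only and 6.56% with both marks.

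Most members had no other member within 100 kb. Another H3K4me3 region of any class lay within that distance of 614 members (66.5%). Joining members within 100 kb of each other left 816 single, 42 pairs, 3 runs of 3 members, 1 run of 7 and 1 run of 8.

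The run of 8 lay in 14q11.2, on chromosome 14 from 19641129 to 19933523, 0.541 to 0.833 Mb from the centromere. Over these 292 kb there were 9 H3K4me3 regions, of which 8 were members, with 3 H3K4me1 regions and 1 H3K27ac region. From the centromere outward the 8 had signal values of 4.35, 5.23, 7.64, 13.99, 11.4, 6.16, 9.13 and 2.96. Their median of 6.90 was above the upper quartile of all members, 5.21, and their widths ran from 411 to 1364 bp. The gap to another mark ran from 439 to 68799 bp.

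The run of 7 lay in 5q31.3, on chromosome 5 from 140561941 to 140739919. This band holds the clustered protocadherin genes, which encode cell adhesion proteins of neurons and each have their own promoter. Whether the members lie at those promoters was not analysed here. Over these 178 kb there were 11 H3K4me3 regions, of which 7 were members, with 3 H3K4me1 and 2 H3K27ac regions. In order of position the 7 had signal values of 4.66, 4.91, 3.66, 3.68, 7.26, 3.07 and 3.06, beside a median of 3.33 over all members. Widths ran from 388 to 1034 bp, and the gap to another mark from 3390 to 67500 bp.

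Runs of 3 were found in 1q21.1, 9q21.11 and 15q25.2. The first lay on chromosome 1 from 144519179 to 144521276, only 2.10 kb in all, with signal values of 3.24 to 6.25. The run in 9q21.11, on chromosome 9 from 69785993 to 69881731, had signal values of 3.01 to 4.31, and the one in 15q25.2, on chromosome 15 from 82944765 to 83002455, had 3.94 to 4.68. No other H3K4me3 region lay within the span of any of these 3 runs.

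Beside other H3K4me3 regions of like signal value, the members had weaker p-values. Signal and p-value come from the list that the rule used, so this is a description. Between signal values of 4 and 6 the median −log10 p-value was 49.7 for 182 members, 68.9 for regions with H3K4me1 only, 59.1 for those with H3K27ac only and 98.4 for those with both marks. Between 6 and 10 it was 118 for 122 members, beside 158, 119 and 228, so that the regions with H3K27ac only were level with the members there. Between 10 and 20 it was 258 for 45 members, beside 397, 365 and 646.

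To put this on 1 scale, the −log10 p-value of each region was ranked among the 200 H3K4me3 regions nearest to it in signal value. The median percentile was 12 for members, with quartiles of 4 and 29.6, against 33 for regions with H3K4me1 only, 24.5 for those with H3K27ac only and 57 for those with both marks. The chromosome median was below 50 on 22 of 23 chromosomes for members, on 19 for regions with H3K4me1 only, on 18 for those with H3K27ac only and on 12 for those with both marks. The percentile was below 10 for 416 members (45.0%), against 13.5, 34.3 and 6.21% in the other 3 classes. The autosomes alone gave a median of 13. Width moves with this measure, since between signal values of 4 and 6 the members had a median width of 664 bp, against 842 bp for regions with H3K4me1 only and 1006 bp for those with both marks, and its part in the result was not tested.

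The strong members showed this as well, with exceptions. Of the 10 strongest, 6 had a percentile below 10, among them the second, at 2, the fourth, at 2, and both regions on chromosome 9, at 1 and 1.5. The strongest member of all was at 45, the third at 42.5 and the tenth at 85. The 8 members of the run in 14q11.2 had a median percentile of 3.63, and the 7 in 5q31.3 one of 10. The 10 strongest members were therefore unlike one another in p-value for their signal, with the 12p13.1 and 4p15.2 regions near the middle of the H3K4me3 regions of like signal, the 6q21 region above it and 6 of the others below a percentile of 10.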

How the data were processed

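The deposited files were 3 lists of ChIP-seq peaks, 1 per mark. Per the submitters' processing notes MACS2 and hg19 were used, with no versions or roles given, and the use made of the control libraries is not given in the sources used here. Each peak came with a signal value, a −log10 p-value, a −log10 q-value and a summit offset in bp, all deposited by the authors. No per-sample columns were given, so values carry no replicate error and depth is unknown.

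Regions were shared where at least 1 bp coincided. Gaps are the bases between region edges. The p-value of a region was ranked among 200 regions, 100 on either side in signal value. Bands and centromeres came from the hg19 table in circlize 0.4.16 and chromosome lengths, 3036.3 Mb in all, from GenomeInfoDb 1.38.1. Wilson intervals (95%) allow for counting error alone and take adjacent regions to be independent. The overlap and gap functions were checked against simulated lists. Regions and chromosomes are not replicates, and no statistical test was run.

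Regions named were the 10 with the highest signal value, the 5 widest, the 5 farthest from another mark, the 3 longest runs within 100 kb (3 runs tied for the last place), and the 5 smallest gaps and overlaps. The members, the classes and these rules were chosen with earlier results of these data known, and the ranking of p-values was added after that. A planned description of genes, CpG content, motifs and sequence was not run, because the gene tables at hand are on another build. The 11 alternatives covered thresholds, strength, list length, overlap, gap, window, joining and chromosomes. Analyses used Python 3.11.15, numpy 2.4.6, pandas 2.3.3, scipy 1.17.1 and matplotlib 3.10.9.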

Additional observations from a re-analysis of the deposited data

Results flagged for a closer look

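Chromosome Y was kept out of the set described above. Of the 35 H3K4me3 regions listed there, 10 shared no base with either other mark (28.6%, Wilson interval 16.3 to 45.1%), against 3.78% on the other chromosomes. Their signal values ran from 2.08 to 6.53 with a median of 3.87, while the median of all 35 was 10.9. Widths ran from 317 to 944 bp and the gap to the nearest other mark from 3.30 to 557 kb, with a median of 140 kb. The lists held 163 H3K4me1 and 73 H3K27ac regions on this chromosome. The difference from the other chromosomes was not tested.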

How the results depend on the processing

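The 7 results (the number of H3K4me3-only regions, their median signal value, width and gap, the number with another mark within 10 kb, and the shares in the upper 50% of the H3K4me3 list by signal value and in light bands) were recomputed under 11 alternatives. Of 76 values, 42 kept within 1.5 times the reported count, within the SD over chromosomes of a median, or within the Wilson interval of a share, and 34 did not. For the median gap this says little, since its SD of 12735 bp exceeds its value of 5961 bp. It was 0 bp where 50% had to be covered, 415 bp for windows at summits, 5778 to 8553 bp for autosomes, joined peaks and the threshold on H3K4me3 alone, 11562 bp for the threshold on all lists, 15155 bp for the stronger 50% and 15728 bp for gaps over 500 bp. The stronger 50% of each list left 179 regions, with a median signal value of 17.97, a width of 1267 bp, 76 with another mark within 10 kb and 1.12% in the upper 50%. An equal number of peaks per list gave 6502 regions, with 4.02, 726 bp, a median gap of 19959 bp, 2345 within 10 kb, 11.8% in the upper 50% and 56.5% in light bands. Requiring 50% of the region to be covered gave 2283, with 4.59, 739 bp, 1888 within 10 kb, 11.7% and 53.0%. Windows of 200 bp around summits gave 1489, with a median signal value of 4.54, 1091 within 10 kb, 9.74% and 52.3%, and no width. Requiring gaps over 500, 1000 and 5000 bp left 287, 230 and 95 with another mark within 10 kb, and 45.2, 43.0 and 40.4% in light bands. For 1000 and 5000 bp the median gap was 19588 and 38962 bp, and 5000 bp left 490 regions. A −log10 q-value of at least 5 in all lists gave 1328 regions, with a width of 606 bp and 3.39% in the upper 50%. Asked of H3K4me3 alone, the same threshold left 835 regions. No paired analysis was possible because the lists were pooled over replicates, and for the same reason no replicate could be left out. Depth is unknown, so it cannot be said how many members would touch another mark in deeper libraries.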

Other observations

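Many members shared their values exactly with another H3K4me3 region. The same pair of signal value and −log10 p-value, to every deposited digit, was found in at least 1 other region for 408 members (44.2%, Wilson interval 41.0 to 47.4%). The share was 24.1% in regions with H3K4me1 only, 14.5% in those with H3K27ac only and 6.98% in those with both marks. At like signal the order depended on the range of signal. Below a signal value of 2 it was 35.2% of members, against 35.8% with H3K4me1 only, 33.3% with H3K27ac only and 25.05% with both marks, and above 20 it was 0 of 9 members. Between signal values of 4 and 6 it was 46.2% of members, against 18.03, 39.6 and 9.56% of the other 3 classes, and between 6 and 10 it was 27.05%, against 10.2, 32.1 and 4.77%. In the run of 8 in 14q11.2, 7 members shared such a pair with another region, and in the run of 7 in 5q31.3, 4 did. In each of the 3 runs of 3, all 3 members did.

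Variable bands, which are the heterochromatic stretches whose length differs between people, and bands at centromeres held few members and few H3K4me3 regions of the other classes. The former held 8 (0.866%) and the latter 6 (0.649%), while these bands made up 3.23 and 3.40% of the length. The shares were 0.263 and 0.701% for regions with H3K4me1 only, 1.18% in either kind of band for those with H3K27ac only, and 0.243 and 0.204% for those with both marks. Put the other way, 10.8% of all H3K4me3 regions in variable bands were members (interval 5.58 to 19.9%). In bands at centromeres it was 7.06% (interval 3.28 to 14.6%), beside 3.78% of the whole list. Members within 1 Mb of a centromere had a median p-value percentile of 4, against 12 for the other 897.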
